A study of Homo sapiens with 12 samples.

Results

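Control and NRF2 siRNA were compared for 10 named genes of fatty acid omega-hydroxylation and glucuronidation: CYP4F2, CYP4F3, CYP4F11 and CYP4F12, UGT1A1, UGT1A3, UGT1A6, UGT1A7 and UGT1A9, and UGDH. The genes were taken by name, with earlier results of these data known, and 9 of the 10 were paired with an identifier among the 57815 genes of each file. UGT1A3 was not analysed here. CYP4F enzymes are cytochrome P450 monooxygenases of the endoplasmic reticulum that place a hydroxyl group on the end of fatty acid chains, including leukotrienes, and on the side chains of vitamins E and K. UGT1A enzymes join glucuronic acid to phenols, bilirubin and drugs, so that these can be exported, and UGDH makes their co-substrate, UDP-glucuronic acid, from UDP-glucose. NRF2 (gene NFE2L2) is a transcription factor that drives detoxification genes and is normally degraded through KEAP1.

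RNA-seq was performed on 3 human lung cancer cell lines, each of which carries a KEAP1 mutation: A549 and H2023, labelled lung adenocarcinoma, and H460, labelled lung large cell carcinoma. In each line 2 libraries came from cells given control siRNA and 2 from cells given NRF2 siRNA, 1 with siRNA 28 and 1 with siRNA 30, with RNA taken after 48 h, which gave 12 libraries in 6 groups. The control libraries were biological duplicates, whereas the NRF2 siRNA libraries of a line differed in the siRNA, so the spread of that group holds the difference between siRNAs as well. A549 RNA was prepared by rRNA removal and H2023 and H460 RNA by polyA selection, so levels in A549 are not set against the other lines. The values are FPKM, fragments per kilobase of transcript scaled to the number of fragments mapped in the library. Differences are NRF2 siRNA minus control siRNA in log2(FPKM + 1), given with their standard error (SE), and tested with limma over all genes with at least 1 FPKM in at least 2 of the 4 libraries of a line, p-values being adjusted by the Benjamini-Hochberg method and called under 0.05. On this scale changes of low genes are understated.

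Between 12732 and 13909 genes reached 1 FPKM in a library, and the relative depth, estimated from the commonest ratio of low values between libraries, lay within 92.7% to 107% of the first control library of the same line. Of 6 epithelial markers, 6, 6 and 4 had a mean of at least 1 FPKM in A549, H2023 and H460, whereas 0 of 5 lung adenocarcinoma lineage markers did in any line. The epithelial sum ranged in FPKM from 6991 to 10220 with control siRNA and from 8729 to 10040 with NRF2 siRNA in A549, from 2810 to 3386 against 6012 to 6336 in H2023 and from 1154 to 1346 against 1763 to 2633 in H460. Of 4 immune markers 2, 1 and 2 reached a mean of 1 FPKM, and their sum ranged from 14.7 to 16.1 against 29.3 to 32.6 FPKM in A549, from 43.9 to 49.0 against 46.8 to 58.5 in H2023 and from 38.4 to 44.7 against 34.1 to 48.6 in H460, while the leukocyte genes PTPRC and CD3E stayed below 1 FPKM in every library. Of 4 fibroblast markers 0, 1 and 2 did, with sums of at most 0.773 FPKM in A549, of 1.51 to 4.03 against 3.50 to 8.19 in H2023 and of 2.44 to 3.34 against 7.69 to 9.98 in H460. Of 4 hepatocyte markers 0, 1 and 0 did, the H2023 sum ranging from 3.71 to 21.9 against 7.18 to 109.5, and 0 of 2 endothelial markers did in any line. The part of these marker levels in the members' values was not tested. NFE2L2, the targeted gene, stood at 38.2 and 30.9 FPKM with control siRNA in A549 and at 5.31 and 7.84 with siRNA 28 and siRNA 30. It stood at 120.0 and 118 against 7.74 and 6.80 FPKM in H2023, and at 144 and 99.5 against 6.54 and 12.2 in H460. The targeted gene was thus lower in every NRF2 siRNA library than in either control library of its line. Mitochondrially encoded transcripts took 8.56% to 13.1% of the summed FPKM in the control libraries of H460 and 20.8% to 26.0% in its NRF2 siRNA libraries, 11.97% to 18.1% against 17.4% to 22.8% in H2023 and 1.28% to 1.29% against 0.892% to 1.56% in A549.

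The sequences show how far reads can be assigned to 1 member. The 9 UGT1A genes are overlapping transcription units on chromosome 2 with separate first exons of 882 to 976 bases and the same exons 2 to 5, together 1479 bases, which make up 60.2% to 62.6% of each transcript. Exon 2, shown because any read within it fits all 9 genes alike, lies at chr2:234675680-234675811 on the plus strand (GRCh37) and is coding.
UGT1A exon 2: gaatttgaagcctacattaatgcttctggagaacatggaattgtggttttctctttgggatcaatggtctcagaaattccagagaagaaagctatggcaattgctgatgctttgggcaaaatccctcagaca
Of the windows of 80 bases, the read length, in each transcript, 61.5% in UGT1A1, 59.2% in UGT1A6, 61.4% in UGT1A7 and 64.6% in UGT1A9 also occurred in another gene. The CYP4F genes are paralogs in 1 cluster on chromosome 19, and the coding sequences of the 4 members were 84.6% to 91.5% identical, most so for CYP4F2 and CYP4F3. Coding bases 648 to 707 of CYP4F3, at chr19:15760723-15760782 on the plus strand (GRCh37), are shown with the aligned bases of CYP4F11 (chr19:16034833-16034892, minus strand), CYP4F2 (chr19:16000444-16000503, minus strand) and CYP4F12 (chr19:15794303-15794362, plus strand), in which capitals mark bases that differ from CYP4F3.
CYP4F3: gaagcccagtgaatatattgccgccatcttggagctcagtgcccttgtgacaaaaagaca
CYP4F11: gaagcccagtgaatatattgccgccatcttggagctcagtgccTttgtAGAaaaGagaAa
CYP4F2: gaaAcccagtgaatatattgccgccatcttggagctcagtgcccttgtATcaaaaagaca
CYP4F12: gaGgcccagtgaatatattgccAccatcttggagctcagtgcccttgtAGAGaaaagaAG
In these 60 bases CYP4F11 differed at 6, CYP4F2 at 3 and CYP4F12 at 8. Over whole transcripts, 0.0% of the windows of 80 bases in CYP4F11 and in UGDH occurred exactly in an annotated transcript of another gene. The share was 0.4% in CYP4F12, 3.8% in CYP4F3 and 8.2% in CYP4F2, and the shared windows of CYP4F3 were shared with CYP4F2. By exact matches, reads of CYP4F11 and UGDH could thus be told from those of other genes, and those of CYP4F3 almost so. Values of single UGT1A genes can depend on how reads of the shared exons were divided. Inexact matches and sequence outside annotated transcripts were not searched.

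UGDH, CYP4F11 and CYP4F3 were the members with the highest control values and had lower values with NRF2 siRNA in all 3 lines, while CYP4F12 did not pass the test in the 2 lines where it was tested. In RNA of whole cultures fewer cells that express a gene and less RNA per cell cannot be told apart. Of the members tested, 1 in A549 (UGT1A6) and 1 in H460 (CYP4F3) passed the filter only through their control libraries, the group where they were high, and their tests are not read or counted here. Of the others, 3 of 4 were called lower and 0 higher in A549, where 0.554% of all 13898 genes tested were called lower and 0.122% higher. In H2023 3 of 4 were called lower and 0 higher, against 0.583% and 0.327% of 14059 genes, and in H460 2 of 2 were called lower, against 6.86% lower and 7.12% higher of 13446 genes. The remaining members were under the filter, and 4, 4 and 5 members of the 9 were below 1 FPKM in every library of A549, H2023 and H460. Because the members were chosen with earlier results of these data known, these counts are a description and not a test.

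UGDH, at chr4:39500375-39529931 on the minus strand (GRCh37, 12 exons), encodes UDP-glucose 6-dehydrogenase, the enzyme that makes the sugar donor of the UGT1A enzymes. In A549 it stood at 363 and 278 FPKM in the control libraries and at 41.0 and 56.6 FPKM with siRNA 28 and siRNA 30. In H2023 the values were 555 and 535 against 87.4 and 109 FPKM, and in H460 they were 1006 and 726 against 61.7 and 119 FPKM. The groups did not overlap in any line, and in each line the library with siRNA 28 was the lowest. With NRF2 siRNA 15.2%, 18.0% and 10.5% of the mean control FPKM was left in A549, H2023 and H460. In A549, H2023 and H460, the difference in log2(FPKM + 1) was -2.70 ± 0.22, -2.47 ± 0.17 and -3.30 ± 0.36 (adjusted p = 0.00946, 0.0128 and 0.0127).

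CYP4F11, at chr19:16023177-16045677 on the minus strand (12 exons), hydroxylates long-chain fatty acids and vitamin K. It stood at 41.7 and 45.5 FPKM in the A549 control libraries and at 4.61 and 4.52 FPKM with siRNA 28 and siRNA 30. In H2023 it stood at 119 and 112 against 9.76 and 5.18 FPKM, and in H460 at 56.5 and 58.5 against 7.53 and 9.32 FPKM. Both siRNAs gave values below both controls in each line, and with NRF2 siRNA the A549 libraries lay closest together. The share left was 10.5%, 6.47% and 14.7%. The differences in log2(FPKM + 1) were -3.00 ± 0.14, -3.84 ± 0.29 and -2.64 ± 0.23 in the same order (adjusted p = 0.00231, 0.0151 and 0.0102).

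CYP4F3, at chr19:15751707-15773635 on the plus strand (13 exons), encodes a leukotriene B4 omega-hydroxylase, which ends the action of this chemoattractant. Its control values were 22.4 and 24.7 FPKM in A549, where siRNA 28 and siRNA 30 gave 3.13 and 5.36 FPKM. They were 45.5 and 35.8 FPKM in H2023, with 2.35 and 1.08 FPKM after NRF2 siRNA. In H460 CYP4F3 was low already with control siRNA, at 1.74 and 1.77 FPKM, and was 0.065 and 0.0147 FPKM with NRF2 siRNA. The groups were apart in all 3 lines. NRF2 siRNA left 18.0%, 4.21% and 2.27% of the control FPKM in the respective lines. Differences in log2(FPKM + 1) of -2.26 ± 0.23 and -3.97 ± 0.30 were found in A549 and H2023 (adjusted p = 0.0237 and 0.0151). The H460 difference was -1.41 ± 0.24, close to the -1.46 that is the largest fall this scale can show from the H460 control values.

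Without the filter on low values, which brings all genes into the adjustment, 0 members were called in each line. Leaving out either control library of H2023 or of H460 left 0 calls in that line. With 1 control library the spread in these fits comes from the 2 NRF2 siRNA libraries alone, which differ in siRNA, and the lone control is assumed to vary like them. Where the genes could be tested in leave-one-out fits of these lines, which CYP4F3 of H460 could not without a control library, the differences of the 3 genes stayed between -4.31 and -1.37. With the mitochondrially encoded transcripts left out, UGDH and CYP4F11 were called lower in H460 and 3 members in H2023, and the part of these transcripts in the values was otherwise not tested. In A549 the CYP4F3 call was lost without either control library (adjusted p = 0.0904 and 0.0890), and UGDH and CYP4F11 passed in all 4 leave-one-out fits.

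CYP4F12, at chr19:15783828-15807984 on the plus strand (13 exons), begins 10.2 kb beyond the end of CYP4F3 and encodes an enzyme that hydroxylates arachidonic acid and some antihistamines. It stood at 2.44 and 3.18 FPKM in the A549 controls and at 3.61 and 4.16 FPKM with siRNA 28 and siRNA 30, a difference of 0.37 ± 0.18 (adjusted p = 0.464). In H2023 the values were 3.18 and 3.72 against 4.00 and 3.52 FPKM, a difference of 0.10 ± 0.22 with a 95% interval from -0.45 to 0.65 (adjusted p = 0.867). In H460 it was 0.00552 and 0.0308 FPKM in the controls, 0.0403 FPKM with siRNA 28 and 2.29 FPKM with siRNA 30, so that 1 of the 4 libraries reached 1 FPKM and the gene was not tested. CYP4F2, the vitamin K and vitamin E hydroxylase at chr19:15988833-16008887 on the minus strand, ranged up to 0.375 FPKM over the 12 libraries and was below the filter in each line. Summed over the 4 CYP4F members, 18.5%, 8.13% and 16.3% of the control FPKM was left in A549, H2023 and H460.

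**Figure D1:**
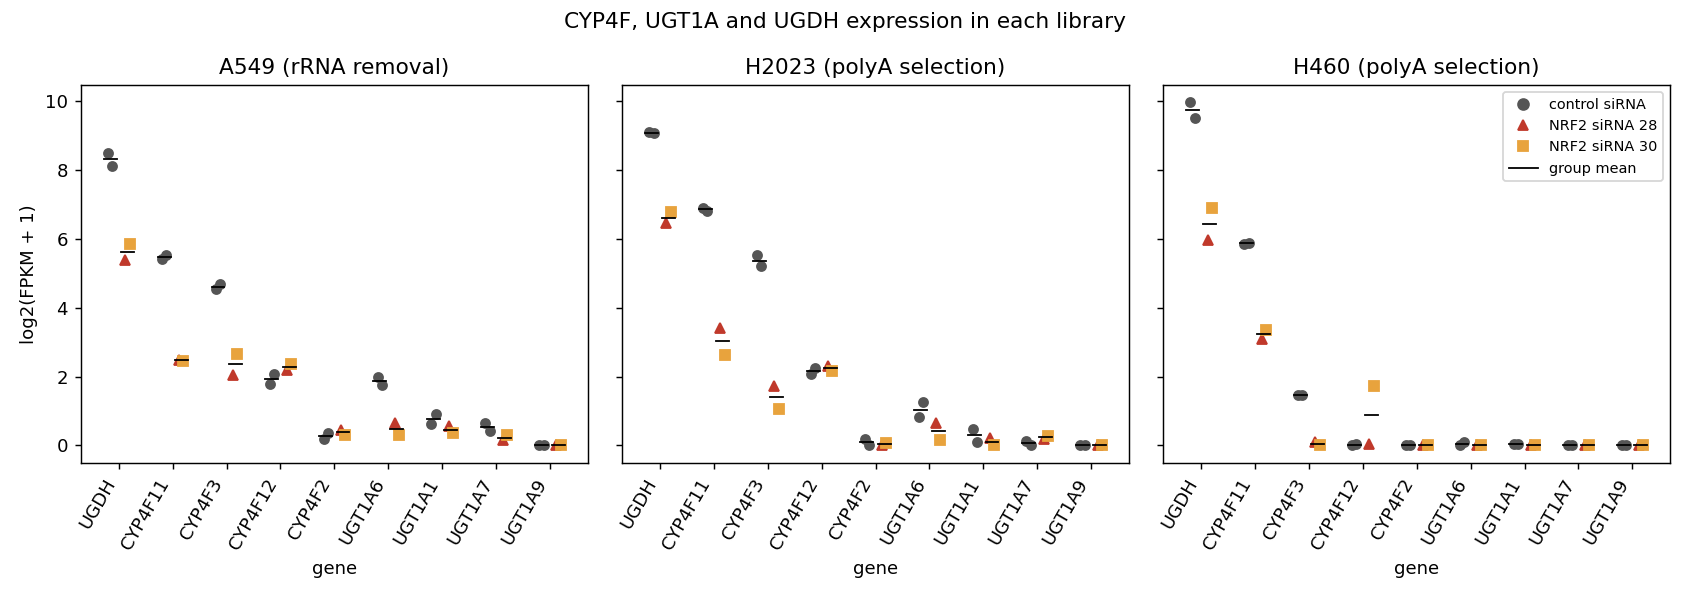
Values of the 9 members in each of the 12 libraries on a log2(FPKM + 1) axis, 1 panel per line, with circles for control siRNA, triangles for siRNA 28, squares for siRNA 30 and a bar at each group mean (n = 2). UGDH, CYP4F11 and CYP4F3 sit lower with both siRNAs than in both controls in each panel, CYP4F12 does not, and the H460 library with siRNA 30 stands alone for CYP4F12 at 2.29 FPKM.

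The remaining genes of the CYP4F cluster and its surroundings were read to see how far the lower values extended. Within 100 kb of the CYP4F members, 3, 2 and 2 other genes passed the filter in A549, H2023 and H460, and 1 was called in each line: the processed pseudogene ENSG00000267056, named by its identifier because the reference tables give no symbol. It lies on the minus strand at chr19:16021392-16022634, 542 bases beyond the 3′ end of CYP4F11 on the same strand. It stood at 13.1 and 17.1 FPKM in the A549 controls and at 1.03 and 1.20 FPKM with siRNA 28 and siRNA 30. It stood at 39.6 and 42.1 against 3.29 and 1.81 FPKM in H2023, and at 5.61 and 9.60 against 1.07 and 1.31 FPKM in H460. The difference was -2.92 ± 0.19, -3.59 ± 0.26 and -1.94 ± 0.32 in the 3 lines (adjusted p = 0.00368, 0.0147 and 0.0218). Whether its fragments are of a separate transcript or run on from CYP4F11 was not tested. Around UGDH, 3, 4 and 3 neighbours were tested in A549, H2023 and H460, and 0 were called: LIAS differed by -0.21 ± 0.17 in A549, RPL9 by 0.04 ± 0.16 and SMIM14 by -0.61 ± 0.17 (adjusted p = 0.647, 0.943 and 0.246). In H2023 and H460 LIAS differed by -0.28 ± 0.22 and -0.49 ± 0.31, RPL9 by -0.27 ± 0.18 and -0.03 ± 0.28, and SMIM14 by -0.53 ± 0.22 and, in the other direction, 0.97 ± 0.27 (adjusted p = 0.0622 for the last). Around the UGT1A genes 2 neighbours were tested in each line, UGT1A8 being left out because it passed the filter in A549 through its controls alone, and 1 was called lower in A549 and in H460, the centromere histone chaperone gene HJURP (differences -1.07 ± 0.12 and -2.06 ± 0.22, adjusted p = 0.0345 and 0.0120), at -0.93 ± 0.21 in H2023 (adjusted p = 0.138).

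**Figure D2:**
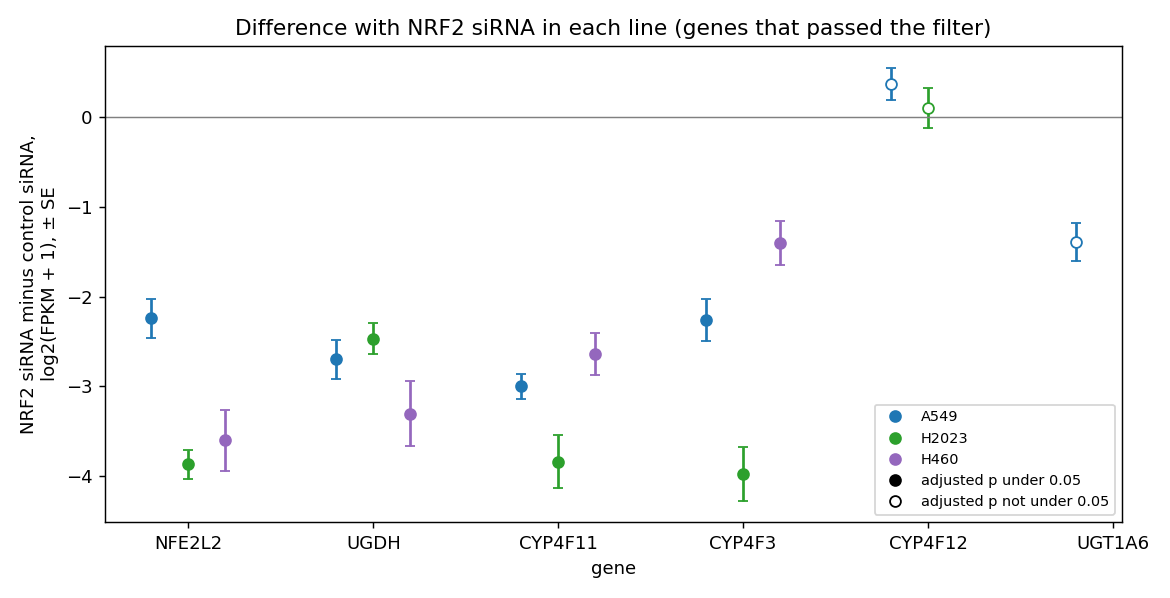
Difference between NRF2 siRNA and control siRNA in log2(FPKM + 1), with its SE, for NFE2L2 and each member that passed the filter, 1 colour per line; filled points have an adjusted p under 0.05 (limma). UGDH, CYP4F11 and CYP4F3 lie between -3.97 and -1.41 in all 3 lines, and CYP4F12 lies at 0.37 and 0.10 in the 2 lines where it was tested. UGT1A6 in A549 and CYP4F3 in H460 passed the filter only through their controls.

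Among the UGT1A members, UGT1A6 (chr2:234600253-234681946, plus strand, GRCh37), which conjugates small planar phenols, had the highest values in the control libraries of A549 and H2023. In A549 it was 3.00 and 2.36 FPKM with control siRNA and 0.569 and 0.236 FPKM with siRNA 28 and siRNA 30. The groups were apart, with 15.1% of the control value left and a difference of -1.39 ± 0.21 in log2(FPKM + 1), given without a test because only the control libraries reached 1 FPKM. In H2023 UGT1A6 was 0.760 and 1.40 against 0.575 and 0.118 FPKM, and in H460 it was at most 0.0761 FPKM, so it was not tested in these lines.

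UGT1A1, which conjugates bilirubin, was 0.547 and 0.893 FPKM in the A549 controls and 0.468 and 0.289 FPKM with siRNA 28 and siRNA 30. UGT1A7, known from airway and gut rather than liver, was 0.563 and 0.351 against 0.108 and 0.233 FPKM. Both genes had lower values with both siRNAs in A549, at levels under the filter. UGT1A9, a transferase of liver and kidney, did not exceed 0.00546 FPKM in any library. In H2023 UGT1A7 went the other way, at 0.101 and 0 FPKM in the controls and 0.146 and 0.214 FPKM with NRF2 siRNA. Counted over all 9 members, those under the filter included, both NRF2 siRNA libraries lay below both controls for 6 in A549, 4 in H2023 and 5 in H460, and above both for 1 in each line, which was CYP4F12 in A549 and H460 and UGT1A7 in H2023. Among the genes tested, none of them under the filter, 20.5%, 22.0% and 31.6% lay below both controls and 25.2%, 27.0% and 31.1% above both.

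Because reads of the shared exons can be moved between genes, the UGT1A genes were also summed. UGT1A3 and UGT1A5, which have the same exons 2 to 5, had no paired identifier and are not in the sums. The sums can therefore still depend on how shared reads were divided. Over the 4 UGT1A members, A549 had 4.11 and 3.60 FPKM in the controls and 1.145 and 0.757 FPKM with siRNA 28 and siRNA 30, a share left of 24.7%, and H2023 had 1.25 and 1.48 against 0.876 and 0.333 FPKM, a share left of 44.2%. Over the 7 UGT1A genes with an identifier, A549 had 5.92 and 4.74 FPKM in the controls and 1.21 and 1.07 FPKM with siRNA 28 and siRNA 30, a share left of 21.4%. H2023 had 2.18 and 2.71 against 0.876 and 0.438 FPKM, a share left of 26.9%, and H460 stayed at or below 0.147 FPKM. Summed values were thus lower with each siRNA than in each control in A549 and H2023. The division itself varied between duplicates: UGT1A1 held 9.24% of the sum in 1 A549 control library and 18.9% in the other, and 17.9% against 2.85% in H2023. UGT1A8, which is outside the 10 genes, held 30.7% and 23.9% of the sum in the A549 controls, whereas the authors' mean normalised count for it was 0 in all 3 lines. The authors' mean normalised count of UGT1A6 was 30.5, 7.33 and 0 over A549, H2023 and H460, and that of UGDH was 11152, 6183 and 7939, so few reads were assigned to a single UGT1A gene. The part that the assignment of shared reads played in single UGT1A values was not tested.

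**Figure D3:**
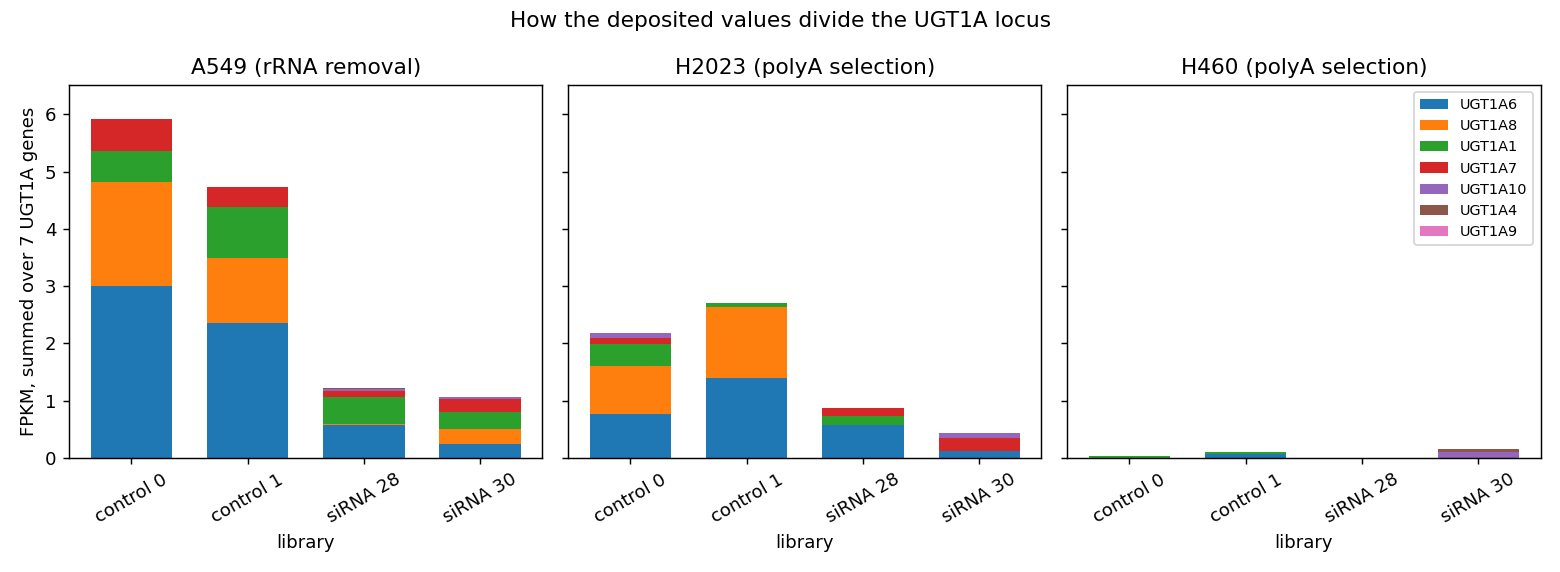
FPKM of 7 UGT1A genes stacked for each library, 1 panel per line, with the bar height giving the sum of these genes. The A549 controls reach 5.92 and 4.74 FPKM and the A549 NRF2 siRNA libraries 1.21 and 1.07, the colours change between duplicates, and H460 stays at or below 0.147 FPKM.

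Over the 3 lines together, the mean of the within-line differences was -3.16 ± 0.13 for CYP4F11 (adjusted p = 4.60e-07) and -2.82 ± 0.17 for UGDH (adjusted p = 6.73e-06). It was -2.55 ± 0.16 for CYP4F3, given without a test because H460 entered through its controls alone. In this fit 14.5% of 11571 genes were called lower. In the F test of a difference in effect between the lines, by which 2.51% of genes were called, the adjusted p was 0.122 for CYP4F11 and 0.447 for UGDH. For CYP4F3 this test is not read, since H460 entered through its controls alone and the largest fall that the log2(FPKM + 1) scale allows there is -1.46. Between H2023 and A549, the difference in effect on CYP4F3 was -1.71 ± 0.38 and did not pass (limma, adjusted p = 0.4245). In that comparison 1 of 11571 genes was called.

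The 2 siRNAs were then compared over the 6 NRF2 siRNA libraries. With limma, 0 members and 0 of 15716 genes differed after adjustment, while 7.08% were lower and 11.1% higher with siRNA 28 at an unadjusted p under 0.05. UGDH had lower values with siRNA 28 in 3 of 3 lines, at a difference of -0.57 ± 0.16 that did not pass the test (limma, adjusted p = 0.186). CYP4F11 differed by 0.18 ± 0.25 with a 95% interval from -0.43 to 0.80, and CYP4F3 by 0.05 ± 0.27 with an interval from -0.63 to 0.72.

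Before NRF2 was lowered, the 2 polyA-selected lines differed in these genes. With control siRNA, CYP4F3 was lower in H460 than in H2023 (H460 minus H2023 in log2(FPKM + 1), -3.91 ± 0.19, adjusted p = 9.90e-05), as was CYP4F11 (-0.99 ± 0.12, adjusted p = 0.00188). For UGDH the difference was 0.65 ± 0.20 (adjusted p = 0.0410), and it passed the threshold in 5 of 13 alternative settings, over which it ranged from 0.25 to 0.88 (adjusted p from 0.00874 to 0.220). In this comparison 48.8% of all genes were called, so that these calls are few genes against a high share. CYP4F12, at 0.00552 and 0.0308 FPKM in H460 and 3.18 and 3.72 FPKM in H2023, passed the filter of this comparison only through H2023, and its test is not read. Within a line the order of control FPKM was UGDH, CYP4F11, CYP4F3 in every library, and CYP4F12 and UGT1A6, next in A549, overlapped.

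The upstream sequences of UGDH, CYP4F11 and CYP4F3 are shown because these members moved together, and that of UGT1A6 because it had the highest values among the transferases. They are taken from RefSeq (GRCh38.p14), 250 bases before to 50 after each annotated start, 5′ to 3′ on the strand of the gene, with capitals for the letters TGACNNNGC, the core of the antioxidant response element to which NRF2 binds, searched on both strands. The windows lie at chr19:15641062-15641361 for CYP4F3, chr19:15934818-15935117 and chr19:15934480-15934779 for 2 starts of CYP4F11, chr4:39527390-39527689 for UGDH and chr2:233692640-233692939 for 1 of 2 starts of UGT1A6.
CYP4F3: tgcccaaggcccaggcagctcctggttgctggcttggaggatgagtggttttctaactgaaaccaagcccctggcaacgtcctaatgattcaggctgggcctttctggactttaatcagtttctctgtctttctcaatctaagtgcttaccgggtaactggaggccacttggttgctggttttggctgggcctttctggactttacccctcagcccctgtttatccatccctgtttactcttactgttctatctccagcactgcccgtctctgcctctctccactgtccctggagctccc
CYP4F11 first start: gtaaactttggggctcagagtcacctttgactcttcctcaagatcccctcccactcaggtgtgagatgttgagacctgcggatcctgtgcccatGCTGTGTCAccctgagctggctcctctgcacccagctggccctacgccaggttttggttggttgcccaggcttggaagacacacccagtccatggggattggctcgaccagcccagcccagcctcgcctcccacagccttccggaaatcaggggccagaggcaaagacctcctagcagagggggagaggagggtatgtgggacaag
CYP4F11 second start: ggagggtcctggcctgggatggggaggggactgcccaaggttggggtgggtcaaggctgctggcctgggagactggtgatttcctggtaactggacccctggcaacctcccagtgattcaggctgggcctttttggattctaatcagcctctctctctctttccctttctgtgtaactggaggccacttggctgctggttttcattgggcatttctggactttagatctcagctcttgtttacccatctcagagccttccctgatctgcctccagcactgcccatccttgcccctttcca
UGDH: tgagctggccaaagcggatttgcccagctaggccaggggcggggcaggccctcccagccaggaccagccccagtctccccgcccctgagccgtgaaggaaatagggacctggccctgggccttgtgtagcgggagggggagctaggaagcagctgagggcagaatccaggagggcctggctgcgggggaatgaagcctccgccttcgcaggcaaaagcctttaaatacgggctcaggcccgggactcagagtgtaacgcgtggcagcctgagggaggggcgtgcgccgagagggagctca
UGT1A6: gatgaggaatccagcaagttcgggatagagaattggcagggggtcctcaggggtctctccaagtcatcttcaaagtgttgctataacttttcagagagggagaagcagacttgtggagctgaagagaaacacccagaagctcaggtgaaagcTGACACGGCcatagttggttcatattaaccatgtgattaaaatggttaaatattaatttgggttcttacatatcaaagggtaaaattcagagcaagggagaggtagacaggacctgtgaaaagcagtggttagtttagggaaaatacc
The letters were found once in the first CYP4F11 window, on the strand opposite to the gene from position -156 relative to the start, and once in the UGT1A6 window, on its own strand from position -98. They were not found in the second CYP4F11 window, the other UGT1A6 window, which is not shown, or the windows of CYP4F3, UGDH, CYP4F2, UGT1A1, UGT1A7 and UGT1A9. For CYP4F12 there was no window to search. Of 35116 promoter windows of this length, 13.3% held them. The CYP4F3 window and the second CYP4F11 window were 78.1% identical over 265 aligned bases.

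Genes of the surrounding pathways were read from lists of named genes, which were also chosen with earlier results of these data known. In none of the 10 lists was a gene called higher in any line, where 0.122%, 0.327% and 7.12% of all genes were called higher in A549, H2023 and H460 and 0.554%, 0.583% and 6.86% lower. Of 12 genes for substrates and products of CYP4F enzymes, 3 of 9 tested were called lower in A549, 2 of 10 in H2023 and 2 of 9 in H460, with list medians of -0.13, -0.21 and -0.14 against 0.02, 0.02 and -0.01 over all genes. PTGR1, which inactivates leukotriene B4 by oxidation and reduces reactive alkenals, fell, with differences of -2.75 ± 0.14, -2.91 ± 0.18 and -2.52 ± 0.21 in A549, H2023 and H460 on the log2(FPKM + 1) scale (adjusted p = 0.00286, 0.00805 and 0.00984). NQO1, a quinone reductase that can reduce vitamin K, fell as well, with differences of -2.38 ± 0.20, -3.15 ± 0.18 and -1.95 ± 0.32 (adjusted p = 0.00950, 0.00713 and 0.0215). ALDH3A2, the fatty aldehyde dehydrogenase that follows omega-hydroxylation, fell in A549 (difference -1.31 ± 0.16, adjusted p = 0.0362), and its difference was -1.34 ± 0.25 in H2023 and -0.17 ± 0.21 in H460 (adjusted p = 0.103 and 0.613).

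Of the 8 genes that lead to UDP-glucose and carry UDP-glucuronate, 0 of 7 were called in A549 and in H2023, and 2 of 8 in H460, the line with the highest share of all genes called lower (6.86%), where HK2 and GPI fell, with differences of -3.13 ± 0.48 and -1.07 ± 0.24 (adjusted p = 0.0195 and 0.0365). GPI differed by -0.51 ± 0.14 in A549 and -0.84 ± 0.19 in H2023 (adjusted p = 0.2425 and 0.1345), where HK2 was under the filter. Between the lines the effect on GPI did not pass the limma F test (adjusted p = 0.3915). HK2 and GPI are enzymes of glucose phosphate metabolism shared with glycolysis. UDP-glucuronate use (4, 5 and 3 genes tested) and glucuronate breakdown (4 in each line) had 0 genes called, as had the other CYP4 genes (1 tested in each line) and, in H2023 and H460, UGT8, the 1 other UGT gene tested there. In A549 the 2 other UGT genes above the filter, UGT1A8 and UGT2B7, passed it through 1 group alone and are not counted. Of 5 transporters of conjugates, ABCC2, which exports glucuronides, fell in A549 and H2023, with differences of -1.93 ± 0.13 and -1.59 ± 0.18 (adjusted p = 0.00378 and 0.0348), and its difference in H460 was -0.06 ± 0.25 (adjusted p = 0.888). The effect on ABCC2 differed between the lines in the fit of all 12 libraries (limma F test, adjusted p = 0.0200), while ALDH3A2 did not pass it (adjusted p = 0.0714).

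Among 4 electron donors of P450 enzymes, CYB5A (cytochrome b5) fell in H460 (difference -1.12 ± 0.22, adjusted p = 0.0303) and 0 of 4 were called in A549 and H2023. CYB5A differed by -0.81 ± 0.18 in A549 and -0.37 ± 0.24 in H2023 (adjusted p = 0.179 and 0.487). Among regulators of xenobiotic response, 0 of 12 were called in A549, 1 of 12 in H2023 and 2 of 11 in H460, all lower, against 0.554%, 0.583% and 6.86% of all genes. MAFG, a small MAF partner of NRF2, fell in H2023, just under the threshold at a difference of -1.65 ± 0.22, and in H460 (difference -1.58 ± 0.33, adjusted p = 0.0332). In A549 the MAFG difference was -1.31 ± 0.18 (adjusted p = 0.0662). KEAP1, the adaptor through which NRF2 is degraded, fell in H460 (difference -1.62 ± 0.20, adjusted p = 0.0158). In A549 and H2023 the KEAP1 differences were -0.65 ± 0.13 and -1.27 ± 0.19 (adjusted p = 0.145 and 0.0622). Differences in effect between the lines did not pass the limma F test for CYB5A, MAFG or KEAP1 (adjusted p = 0.314, 0.844 and 0.0775). In a list of 4 targets of the aryl hydrocarbon receptor, which also acts on UGT1A6, the genes tested in A549, H2023 and H460 numbered 3, 4 and 3. In each line 1 was called. This was ALDH3A1, an aldehyde dehydrogenase, with differences of -3.30 ± 0.34, -2.79 ± 0.26 and -2.92 ± 0.30 (adjusted p = 0.0235, 0.0256 and 0.0120). The others were not called: TIPARP differed by 0.06, 0.66 and 0.36, CYP1B1 by -0.33, -0.88 and 0.38, and CYP1A1, tested in H2023, by 0.78. The list medians were -0.33, -0.11 and 0.36 against 0.02, 0.02 and -0.01 over all genes.

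**Figure D4:**
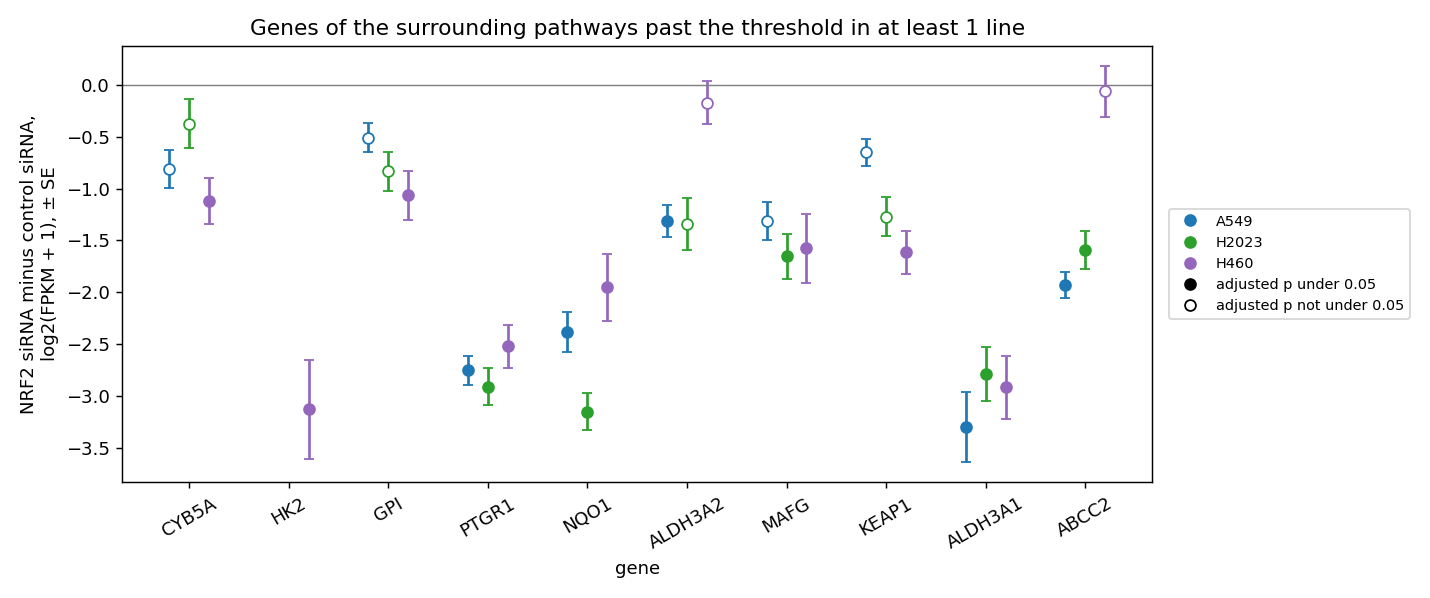
Difference between NRF2 siRNA and control siRNA in log2(FPKM + 1), with its SE, for the 10 listed pathway genes past the threshold in at least 1 line, 1 colour per line; filled points have an adjusted p under 0.05 (limma). PTGR1, NQO1 and ALDH3A1 lie between -3.30 and -1.95 in all 3 lines, and ABCC2 is at -0.06 in H460.

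Likeness in pattern was measured by Pearson's r of log2(FPKM + 1) over the 12 libraries after centring each line, as a description in which the points share lines and siRNAs. Each line was centred over its control and NRF2 siRNA libraries together, so the difference between these groups stays in the values. Genes strongly lower with NRF2 siRNA therefore have a high r through that difference, and r is not read as a link between them. CYP4F3 enters in H460 through its controls alone. CYP4F3 and CYP4F11 had r = 0.966, CYP4F11 and UGDH 0.941 and CYP4F3 and UGDH 0.849. Of 11571 genes, those most like CYP4F11 were NR0B1 (r = 0.993), PTGR1 (0.992) and the pseudogene ENSG00000267056 (0.990). Those most like CYP4F3 were RAB10 (0.992), EPHX1 (0.974) and ENSG00000267056 (0.974). Those most like UGDH were NEDD4 (0.993), TXNRD1 (0.991) and TALDO1 (0.989). NR0B1 is an orphan nuclear receptor, RAB10 a small GTPase, EPHX1 an epoxide hydrolase, NEDD4 a ubiquitin ligase, TXNRD1 a thioredoxin reductase and TALDO1 an enzyme of the pentose phosphate pathway.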

How the data were processed

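Gene expression was measured by strand-specific paired-end RNA-seq (80-base reads). The deposited FPKM were made by the authors on hg19. The study's methods name TopHat and Cufflinks, and the submitters' processing notes name bcl2fastq 2.15.0, cutadapt 1.15, STAR 2.5.3a, SAMtools, Cuffnorm, HTSeq, DESeq2 and R 3.2.0, with hg19 and GRCh37.p13. From the tables per line that the authors deposited, the mean normalised count (a count-based signal over the 4 libraries of a line) was used as an assignment of reads to single genes. Their other columns hold the authors' own comparison and were not used. Normalised counts summed to 33017170, 14228212 and 14029848 in A549, H2023 and H460. The deposited FPKM give no total depth, only an estimate relative to another library, so no interval per value was given.

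Symbols were found for 96.1% of identifiers in a table of gene names, positions and transcripts were taken from the GENCODE annotation of GRCh37, and 12710 values below 1e-06 were set to 0. limma 3.58.1 (R 4.3.3) with a prior variance following the mean was run on log2(FPKM + 1) per line, for the mean and difference of the lines (genes at 1 FPKM in 2 libraries of every line), for siRNA 28 against siRNA 30 with line as a covariate, and for H460 against H2023 controls, and was tested on simulated data. Sequences were read with Biopython 1.88, and figures were drawn with matplotlib 3.10.9. The members and gene lists were chosen with earlier results of these data known. Genes named were the 10 members, NFE2L2, up to 4 genes per pathway list past the threshold in at least 1 line, and the 3 genes most like each member tested in all lines. Genes within 100 kb of the members were added after the data had been examined. UGT8, UGT2B7, UGT1A8, TIPARP, CYP1B1, CYP1A1, PTPRC and CD3E were named after their values were seen. UGT1A5 was named because it had no paired identifier. Alternatives changed the pseudocount, filter, scaling, prior variance, fit, replicate block and libraries.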

Additional observations from a re-analysis of the deposited data

Results flagged for a closer look

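The F test of a difference between the 3 lines in the effect of NRF2 siRNA on CYP4F3 passed the threshold in the fit of all 12 libraries with limma (adjusted p = 0.0242, CYP4F11 0.122 and UGDH 0.447). For A549, H2023 and H460 the differences were -2.26, -3.97 and -1.41 in log2(FPKM + 1), while the shares of control FPKM left were 18.0%, 4.21% and 2.27%. The largest fall the log2(FPKM + 1) scale allows in H460 is -1.46, against -5.37 in H2023. CYP4F3 passed the filter in H460 only through its controls, so the p-value of CYP4F3 is given as a value and not read as a difference in response. Between H2023 and A549 the difference in effect on CYP4F3 was -1.71 ± 0.38 and did not pass (limma, adjusted p = 0.4245). With a pseudocount of 0.1 no member passed this F test. The effect on ABCC2, the exporter of glucuronides, differed between the lines (F test, adjusted p = 0.0200), its differences being -1.93, -1.59 and -0.06 in the same order.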

How the results depend on the processing

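Directions were kept in every alternative run for each member tested in each line. The counts here include the members that passed a filter through 1 group alone (UGT1A6 in A549, CYP4F3 in H460 and between the lines, CYP4F12 between the controls). Without a filter on low values, 0 members were called in A549, in H2023 and in H460. Leaving out 1 library gave 2 to 4 calls in A549, 0 to 3 in H2023 and 0 to 3 in H460, with 0 in the last 2 whenever a control library of that line was left out. The count of members whose effect differed between the lines was 0 with a pseudocount of 0.1 and 0 with a weight per line. It ranged from 0 to 2 with 1 library left out, 2 being without the H2023 library with siRNA 28. Between H2023 and H460 controls 2 to 4 members were called with 1 library left out, 2 without either H2023 control, and 3 under quantile normalization, without mitochondrial transcripts, without a filter and in the fit of all 12 libraries, UGDH being lost in each of these. The cause of these changes was not tested.

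The labels link same-numbered libraries by a number only, which stands for a siRNA in 1 group and a control duplicate in the other. Whether these libraries share anything else was not tested. For A549, H2023 and H460 the deviations of these libraries correlated at -0.03, 0.31 and 0.16. Under a replicate block UGDH and CYP4F11 stayed called lower in each line and on average over the lines. CYP4F3 stayed called lower in A549 and H2023. Its calls under the block in H460, on average and between the lines are not read, since H460 entered through its controls alone. Leaving out mitochondrial transcripts moved the median of all genes in H460 by 0.13 in log2 and the share of lower among called genes from 49.1% to 33.2%, and median-of-ratios scaling gave 58.2%, with UGDH and CYP4F11 called lower under both. FPKM give no counts, so no count test was run, and in the authors' counts few reads were assigned to single UGT1A genes.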
